A study of Mus musculus with 6 samples.

Results

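The organic cation and carnitine transporters of the SLC22 family were examined in mouse intestine together with carnitine acetyltransferase. The set held 7 genes of the 54446 gene identifiers in the deposited table, namely Slc22a4, Slc22a5, Slc22a21, Slc22a15, Slc22a18, Slc22a23 and Crat, each found by its gene symbol, and all 7 passed the filter on low counts. The libraries were 3 of intestine with experimental necrotizing enterocolitis (NEC) and 3 of control intestine, all from wild-type mice sampled at 96 h. NEC is a disease of preterm newborns in which the bowel is inflamed, modelled here in mice. NEC mice were gavaged with 40 µl of 33% Esbilac formula every 4 h, and every 12 h they were placed in 99.9% nitrogen for 100 s and then at 4 °C for 10 min. Control mice were fed by a dam and had neither stress. Formula, hypoxia and cold therefore came together, and their parts cannot be told apart. Segment, age and sex of the mice are not stated in the labels. Nor do they say whether libraries came from separate animals, so p-values measure only the spread between these libraries, which may be technical. The 7 genes were chosen by a proposal made with their NEC and control counts in this same comparison in view, so these values are given as a description, without a test.

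SLC22 proteins are membrane carriers of small charged molecules. Among them the OCTN carriers are best known for carnitine, which ferries long-chain fatty acids into mitochondria, and for the diet-derived antioxidant ergothioneine. In suckling intestine, carnitine reaches the enterocyte mainly from milk. Inside the cell, carnitine acetyltransferase exchanges acetyl groups between coenzyme A and carnitine and so buffers the acetyl-CoA pool.

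Library totals lay between 69441184 and 106304239 counts. The epithelial markers Epcam, Cdh1, Vil1, Cdx1, Cdx2, Fabp2, Krt8 and Krt20 were present in every library, with a summed level of 7863 to 12607 CPM in NEC and of 9908 to 12365 CPM in control, where CPM is the count scaled to a common library size (TMM). Across all 19176 genes tested, 135 were called changed at an edgeR adjusted p below 0.05, of which 50 were higher and 85 lower in NEC. Control replicates 1 and 2 had 179 and 344 CPM of Xist, with no other library above 1.17 CPM, while the Y-linked Ddx3y stood at 1.29 CPM in control replicate 2 and at 19.8 CPM or more elsewhere, so control replicate 1 carried both. Sex and group are thus partly tied and cannot be told apart. With control replicates 1 and 2 left out, the log2 fold change of Slc22a4 was 3.63, without a call. NEC replicate 1 and control replicate 3 carry another sample code prefix in the labels (AG181028) than the other 4 libraries (AG181017). In these whole-tissue libraries, fewer cells of a type and less RNA per cell cannot be told apart.

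In the fitted values Slc22a4 was 9.78-fold and Slc22a23 1.80-fold higher in NEC, Slc22a5 was 1.35-fold and Crat 2.30-fold lower, and Slc22a21, Slc22a15 and Slc22a18 were within 1.12-fold of control. Slc22a4 was the 1 member of 7 among the genes called. Of all genes tested, 0.704% were called, 0.261% as higher and 0.443% as lower in NEC, 15.6% had an unadjusted p below 0.05, and DESeq2 called 7.59%. Groups did not overlap in 3 of the 7 members, with 2 higher and 1 lower in NEC, against 22.4% of all genes tested (10.8% higher and 11.6% lower). Nothing is read from these shares, since the members were proposed from this comparison.

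**Figure D1:**
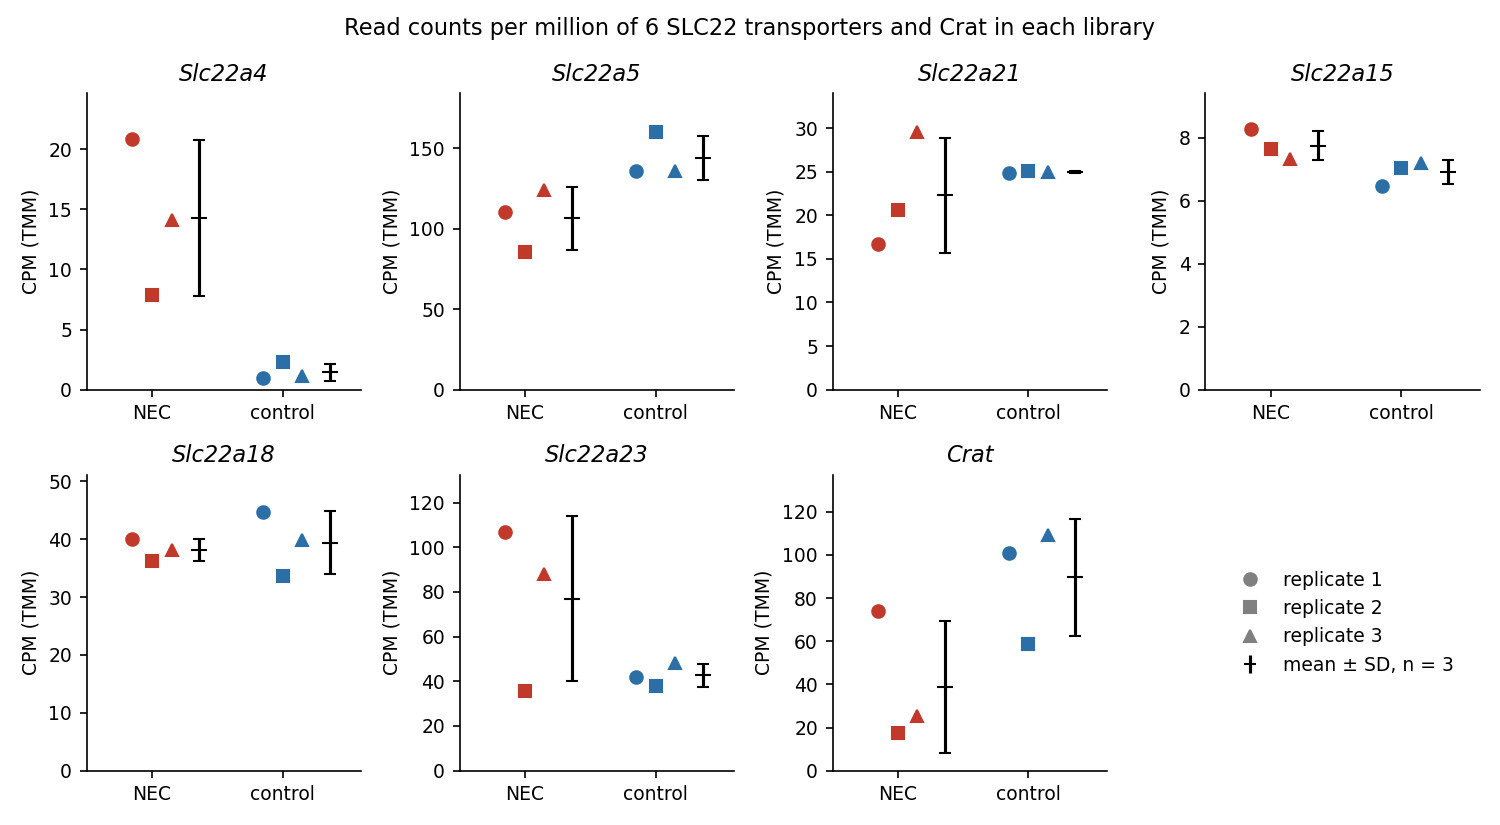
Level of each of the 7 genes in each library, in CPM after TMM scaling on a linear axis from 0, with NEC left of control, one symbol per replicate, and black bars for the mean ± SD (n = 3). Slc22a4 lay between 7.86 and 20.9 CPM in NEC and at or below 2.28 CPM in control, while Slc22a15 and Slc22a18 lay close together in both groups.

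Slc22a4 encodes OCTN1, the ergothioneine and organic cation carrier. It had 20.9, 7.86 and 14.1 CPM in NEC replicates 1 to 3, against 0.954, 2.28 and 1.15 CPM in control replicates 1 to 3. The lowest NEC library stood well above the highest control library, and both groups spread by more than 2-fold within themselves, 2.66-fold in NEC and 2.39-fold in control. The raw counts were 1997, 697 and 979 in NEC and 70, 159 and 121 in control, so the control level rests on few counts. The mean was 14.3 ± 6.54 CPM in NEC and 1.46 ± 0.718 CPM in control (SD, n = 3 each), 9.78-fold apart (log2 fold change 3.29 with SE 0.52 and a 95% interval of 2.09 to 4.49). Within the AG181017 libraries it was 7.13-fold higher in NEC (2 against 2 libraries) and within the AG181028 libraries 18.2-fold (1 against 1). The call was lost without control replicate 1, control replicate 3, NEC replicate 1 or NEC replicate 3, while the log2 fold change stayed between 2.90 and 3.76 whichever library was left out.

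Slc22a5 encodes OCTN2, the high-affinity sodium-coupled carnitine carrier whose loss causes systemic carnitine deficiency in mice. It stood at 110.3, 85.4 and 124 CPM in NEC replicates 1 to 3, against 136, 159.9 and 136 CPM in control replicates 1 to 3. All 3 NEC libraries were under all 3 controls, and the gap between the nearest pair was smaller than the spread within NEC. The mean was 106 ± 19.4 CPM in NEC and 144 ± 13.8 CPM in control (SD, n = 3 each), and the log2 difference was -0.44 (SE 0.23, 95% interval -0.97 to 0.097). Slc22a5 was not among the genes called.

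Slc22a21 encodes OCTN3, a carnitine carrier described in mouse testis. It had 16.7, 20.6 and 29.5 CPM in NEC, against 24.9 to 25.1 CPM in the 3 control libraries. The 3 controls were almost equal, and the NEC libraries lay on both sides of them. On the log2 scale the change was -0.17 (SE 0.27, 95% interval -0.80 to 0.46), and without NEC replicate 1 its sign turned (0.001). Of the 50-base stretches in annotated Slc22a21 transcripts, 22% also occur in those of other genes, 812 of them in Slc22a5, and the corresponding share of Slc22a5 is 26.3%. The counts of this pair may therefore be split between them in a way that depends on the counting, which no source used here describes. For Slc22a4 the shared part was 2.64%.

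Slc22a4, Slc22a21 and Slc22a5 lie next to each other on the minus strand of chromosome 11. In the mm10 coordinates of GENCODE release M21, Slc22a4 (ENSMUSG00000020334) spans 53983123 to 54028090, Slc22a21 (ENSMUSG00000063652) spans 53949965 to 53980332 and Slc22a5 (ENSMUSG00000018900) spans 53864542 to 53891660. No annotated exon of another gene of the table overlaps theirs. Levels between genes are compared per kilobase of annotated exon. On that scale Slc22a4 made up 16.8%, 8.43% and 10.2% of the summed level of the 3 genes in NEC replicates 1 to 3, against 0.724%, 1.49% and 0.875% in control replicates 1 to 3. The share of Slc22a5 was 73.8% to 76.1% in NEC and 85.8% to 87.0% in control. Slc22a5 exceeded Slc22a4 by 4.38 to 9.02 times in NEC and by 58.2 to 119 times in control, so OCTN2 mRNA stayed the most abundant of the 3 in every library. The summed level itself was 48.7, 36.5 and 53.9 CPM per kilobase in NEC and 51.6, 59.9 and 51.5 CPM per kilobase in control, and these ranges overlapped.

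**Figure D2:**
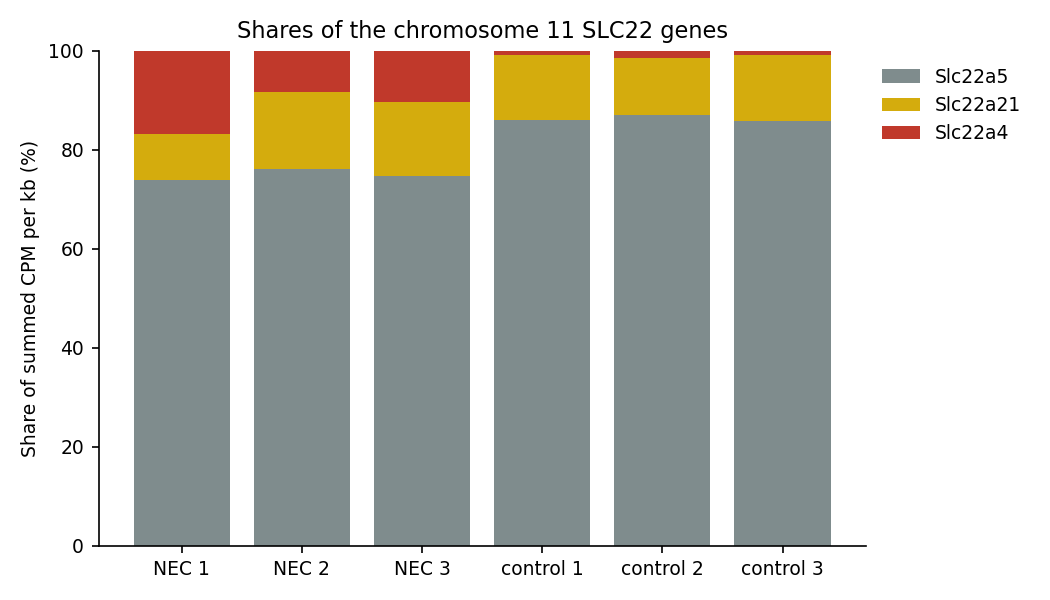
Share of Slc22a5, Slc22a21 and Slc22a4 in the summed level of the 3 genes (CPM per kilobase of exon, in percent) in each library, NEC left of control. The Slc22a4 share ran from 8.43% to 16.8% in NEC and from 0.724% to 1.49% in control.

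The promoters of Slc22a4 and Slc22a5 are printed because these genes of one cluster differed most in their NEC values. Each window holds 250 bases before and 50 after the RefSeq start (build GRCm38.p6), read 5′ to 3′ on the minus strand, at chr11:54028055-54028354 for Slc22a4 and chr11:53891654-53891953 for Slc22a5. Capitals mark matches, on either strand, to AGAACA (glucocorticoid receptor core), AGGTCA (nuclear receptor core), GGGCGG (GC box), TGTGGT (Runx core) or the interferon response element core.
Slc22a4: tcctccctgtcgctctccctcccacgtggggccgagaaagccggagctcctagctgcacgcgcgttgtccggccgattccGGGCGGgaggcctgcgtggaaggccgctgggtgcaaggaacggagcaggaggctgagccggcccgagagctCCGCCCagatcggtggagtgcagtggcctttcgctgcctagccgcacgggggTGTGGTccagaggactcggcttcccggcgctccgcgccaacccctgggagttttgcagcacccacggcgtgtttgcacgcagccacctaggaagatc
Slc22a5: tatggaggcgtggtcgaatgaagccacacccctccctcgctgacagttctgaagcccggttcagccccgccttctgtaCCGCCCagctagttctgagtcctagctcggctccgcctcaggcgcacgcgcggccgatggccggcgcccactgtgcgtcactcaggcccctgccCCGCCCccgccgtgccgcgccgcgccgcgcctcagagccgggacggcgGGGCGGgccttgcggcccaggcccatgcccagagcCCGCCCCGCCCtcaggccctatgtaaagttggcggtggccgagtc
The Slc22a4 window held 2 GC boxes and 1 Runx core, and the Slc22a5 window held 5 GC boxes, of which 2 overlap by 1 base. Of 32544 promoter windows of this length in the RefSeq table, 35.9% hold a GC box, 16.7% a Runx core, 18.9% AGAACA, 16.2% AGGTCA and 3.45% the interferon element core. Neither window matched AGAACA, the nuclear receptor core or the interferon element core. Both were rich in G and C, at 69.0% for Slc22a4 and 72.7% for Slc22a5, with 29 and 34 CpG dinucleotides, against a median of 53.0% and 7 over all windows. The windows of Slc22a15 and Slc22a23 also held GC boxes, 1 and 4, whereas the Slc22a18 window held 2 CpG dinucleotides, no GC box, 1 Runx core and 2 matches to AGAACA. These matches describe letters and show no binding.

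Around the cluster, values in NEC differed from gene to gene. Irf1, an interferon-linked transcription factor gene 86.2 kb from Slc22a5, had 56.7, 38.3 and 69.1 CPM in NEC and 244, 181 and 213 CPM in control. It fell by 1.96 on the log2 scale (SE 0.29, edgeR adjusted p = 0.0396), as the 1 gene called among the 31 tested that lie within 150 kb of any of the 7 members. The Irf1 call was lost whichever library was left out (edgeR adjusted p from 0.0535 without control replicate 2 to 0.222 without control replicate 1), while its log2 fold change ran from -2.16 to -1.77. Exons of Irf1 and Gm17334 overlap on opposite strands. On the other side of Slc22a4, Pdlim4, at 26.8 kb, had a log2 fold change of 0.92 (SE 0.34, edgeR adjusted p = 0.254), and the collagen prolyl hydroxylase gene P4ha2, at 72.0 kb, had 0.36 (SE 0.50, edgeR adjusted p = 0.790). The gene models Gm12216 (-1.87, edgeR adjusted p = 0.101) and Gm17334 (-2.51, edgeR adjusted p = 0.214) missed the threshold as well.

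**Figure D3:**
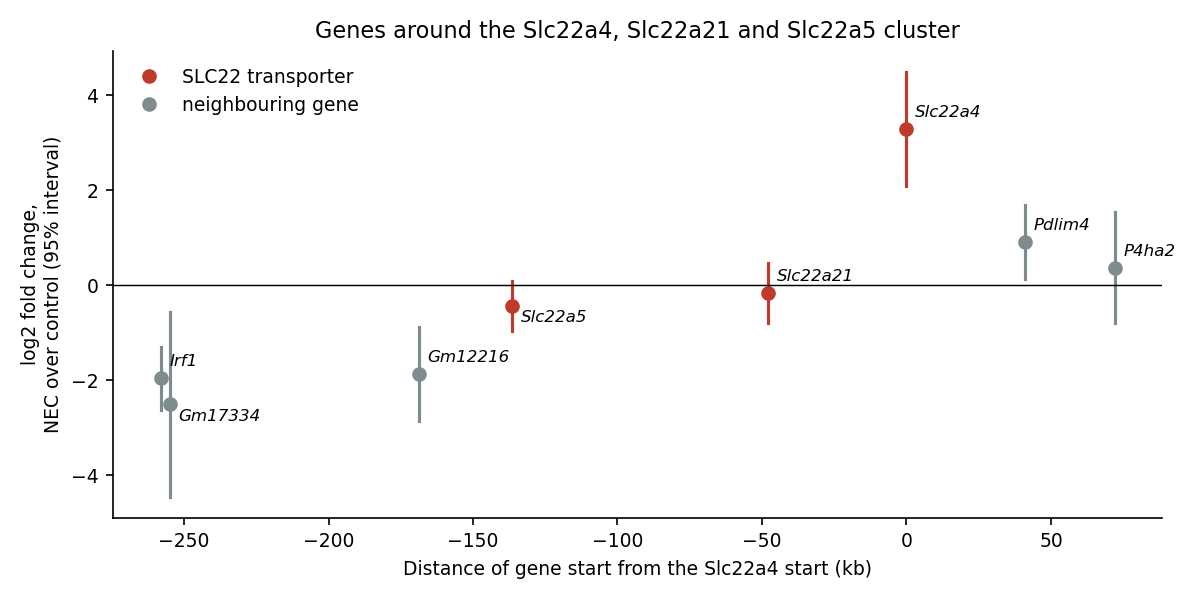
Log2 fold change of NEC over control with its 95% interval for each tested gene around the cluster, against the distance in kb of its start from that of Slc22a4. Slc22a4 at 3.29 stands above its neighbours, while Slc22a21 and Slc22a5 at -0.17 and -0.44 have intervals that include 0 and Irf1 stands at -1.96.

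The other 3 transporters lie on other chromosomes. In the same annotation Slc22a15 (ENSMUSG00000033147) spans 101855776 to 101924453 on the minus strand of chromosome 3, Slc22a18 (ENSMUSG00000000154) spans 143473736 to 143499334 on the plus strand of chromosome 7, and Slc22a23 (ENSMUSG00000038267) spans 34179158 to 34345182 on the minus strand of chromosome 13. Slc22a15, whose human counterpart carries zwitterions such as ergothioneine, had 8.27, 7.65 and 7.34 CPM in NEC, against 6.47, 7.03 and 7.21 CPM in control. The groups did not overlap, though the nearest pair of libraries was close. The log2 fold change was 0.17 (SE 0.26, 95% interval -0.43 to 0.77). Slc22a18, an organic cation carrier-like gene of an imprinted region, had 40.0, 36.3 and 38.1 CPM in NEC, against 44.7, 33.7 and 39.9 CPM in control, which is -0.049 on the log2 scale (SE 0.21, 95% interval -0.54 to 0.45). The groups overlapped, and the sign of the Slc22a18 value turned with library-size scaling (0.019) and without control replicate 1 (0.049).

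Slc22a23, an orphan member with no established substrate, had 107, 35.6 and 88.2 CPM in NEC, against 42.0, 38.1 and 48.3 CPM in control. NEC replicates 1 and 3 stood above all controls and NEC replicate 2 stood below them, a 3.0-fold spread within NEC against 1.27-fold within control. The mean was 76.9 ± 36.9 CPM in NEC and 42.8 ± 5.14 CPM in control (SD, n = 3 each), 0.84 apart on the log2 scale (SE 0.39, 95% interval -0.061 to 1.75), and Slc22a23 was not called. Without NEC replicate 2 the log2 fold change was 1.18, and without NEC replicate 1 it was 0.53.

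Crat (ENSMUSG00000026853), the acetyltransferase, spans 30400471 to 30415813 on the minus strand of chromosome 2. It had 73.8, 17.6 and 25.1 CPM in NEC replicates 1 to 3, against 101, 58.8 and 109 CPM in control replicates 1 to 3. NEC replicates 2 and 3 lay below all controls, and NEC replicate 1 lay above control replicate 2. The mean was 38.9 ± 30.5 CPM in NEC and 89.6 ± 27.0 CPM in control (SD, n = 3 each), or -1.20 on the log2 scale (SE 0.54, 95% interval -2.46 to 0.050), and Crat was not called. Within the AG181017 libraries Crat was 3.66-fold lower in NEC, with both NEC libraries below both controls, and within the AG181028 pair it was 1.48-fold lower. Without NEC replicate 1 the log2 fold change was -2.07, and without NEC replicate 2 it was -0.84. Annotated exons of Dolpp1 and Gm16323 overlap those of Crat on the opposite strand. Without a stated strand setting, reads from the shared bases cannot be told apart. Of the 50-base stretches in annotated Crat transcripts, 4.2% also occur, on either strand, in those of Gm16323 or Dolpp1. Dolpp1 itself had 33.4, 14.9 and 22.8 CPM in NEC, against 16.4, 13.5 and 35.8 CPM in control.

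In CPM after TMM scaling, NEC replicate 2 was the lowest NEC library for Slc22a4, Slc22a5, Slc22a18, Slc22a23 and Crat, but not for Slc22a21 or Slc22a15. It also had the lowest sum of the 8 epithelial markers in NEC, at 7863 CPM, and the highest NEC sums of the 6 smooth muscle markers (3009 CPM, against 1019 and 2019 CPM in NEC replicates 1 and 3) and of the 6 fibroblast markers (1884 CPM, against 466 and 570.1 CPM). In control these sums ran from 865 to 2050 CPM and from 641 to 915 CPM. The part of cell composition in these values was not tested. The TMM factor of NEC replicate 2 was 1.172, against 0.9295 to 1.003 in the other libraries, and a higher factor lowers every CPM of a library. For Slc22a18, whose NEC values lie close together, the order of the NEC libraries depends on this scaling.

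OCTN1 is known in red cell precursors and macrophages, so their markers are given beside Slc22a4. The 8 erythroid markers summed to 476, 2752 and 1258 CPM in NEC replicates 1 to 3 and to 213 to 338 CPM in control, with no marker called and with Slc4a1 and Epb42 among those under 1 CPM in every library. Every NEC erythroid sum lay above every control sum, as for Slc22a4, while within NEC replicate 2 had the highest erythroid sum and the lowest Slc22a4. The 8 macrophage markers summed to 199 to 287 CPM in NEC and to 301 to 383 CPM in control, with a median log2 fold change of 0.60. Csf1r, at 135, 149 and 105 CPM in NEC and 319, 245 and 272 CPM in control, was the 1 marker with a negative value (-1.10), and of the other 7, all with positive values, Cd163 was called (3.71, edgeR adjusted p = 0.0396). The 8 neutrophil markers summed to 27.5 to 52.9 CPM in NEC and to 4.44 to 12.2 CPM in control, with 0 of the 5 tested called, Elane at 0 in every library and Mpo and Cxcr2 under 1 CPM. Every NEC neutrophil sum likewise lay above every control sum, and it too was highest in NEC replicate 2. The part of erythroid cells, macrophages and neutrophils in the Slc22a4 values was not tested.

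Per kilobase of annotated exon, the order of the 7 genes was partly different in the 2 groups. In NEC it ran Slc22a5 at 34.7 ± 6.33, Slc22a18 at 22.5 ± 1.11, Slc22a23 at 12.0 ± 5.78, Crat at 7.21 ± 5.67, Slc22a21 at 6.11 ± 1.81, Slc22a4 at 5.60 ± 2.56 and Slc22a15 at 0.545 ± 0.0333 CPM per kilobase (SD, n = 3 each). In control it ran Slc22a5 at 46.9 ± 4.50, Slc22a18 at 23.2 ± 3.24, Crat at 16.6 ± 5.0, Slc22a21 at 6.87 ± 0.0322, Slc22a23 at 6.70 ± 0.804, Slc22a4 at 0.573 ± 0.281 and Slc22a15 at 0.485 ± 0.0271 CPM per kilobase (SD, n = 3 each). In NEC the ranges of Slc22a23 and Crat, of Crat and Slc22a21, and of Slc22a21 and Slc22a4 overlapped. In control those of Slc22a18 and Crat, of Slc22a21 and Slc22a23, and of Slc22a4 and Slc22a15 overlapped. Slc22a4 thus stood beside the scarcest member in control and beside Slc22a21 in NEC. Length is that of all annotated exons together, 14239 bases for Slc22a15, so a gene with long rarely used exons gets a low value.

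Genes whose pattern over the 6 libraries was nearest to that of a member were ranked by the root mean square difference of log2 CPM centred on each gene's mean. The ranking was made among 10254 tested genes with a mean of at least 5 CPM, leaving out gene models with Gm or Rik symbols. Nearest to Slc22a4 were Vldlr, the receptor for very low density lipoprotein, at a difference of 0.095, the glutamate carrier gene Slc1a1 at 0.184, the metallothionein genes Mt2 at 0.338 and Mt1 at 0.397, and the guanine nucleotide exchange factor gene Arhgef3 at 0.429. Vldlr had 44.8, 14.8 and 30.0 CPM in NEC and 1.91, 5.26 and 2.58 CPM in control. It shared with Slc22a4 the order of libraries within each group, highest in NEC replicate 1 and in control replicate 2. Slc1a1, Mt2, Mt1 and Arhgef3 were called, and Vldlr was not (edgeR adjusted p = 0.0527). Among the nearest to Slc22a5 were AL732309.1 (0.070) and Clk1 (0.073). Slc22a21 was nearest to the lysosomal membrane gene Scarb2 (0.050), Pyroxd1 (0.080) and Tbpl1 (0.083). Slc22a15 had Isca1 (0.037), Mef2a (0.038) and Rapgef6 (0.040), and Slc22a18 had Tacc2 (0.056), Phf23 (0.059) and Spin1 (0.060). For Slc22a23 they were the stress-induced gene Ddit4 (0.127), Cdyl (0.129) and Zfp385b (0.130), and for Crat they were Phf21a (0.193), Znfx1 (0.213) and Shisa5 (0.239). The differences are given as a ranking, without a test. These genes were picked for matching a member in the same libraries, so their calls and group differences add no separate evidence.

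**Figure D4:**
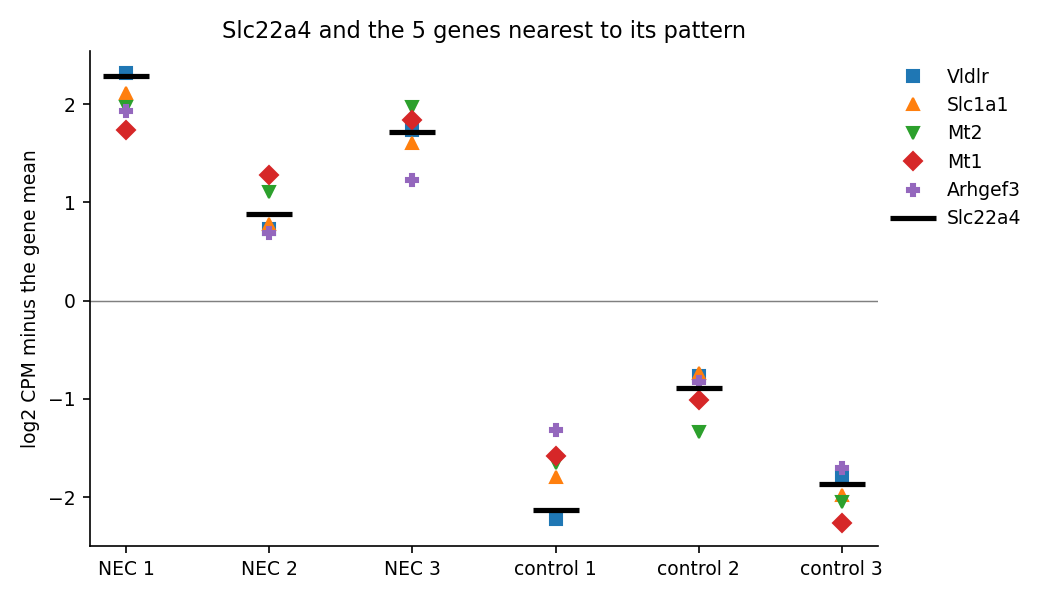
Log2 CPM minus each gene's own mean over the 6 libraries for Slc22a4 (black bar) and the 5 genes nearest to it, NEC left of control. All 6 genes are above their mean in the 3 NEC libraries and below it in the 3 control libraries, and NEC replicate 2 is the lowest NEC library for each.

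Most of the other SLC22 family genes were scarce. Of 20 other family genes in the table, 8 had no count in any library (Slc22a13, Slc22a16, Slc22a19, Slc22a22, Slc22a26, Slc22a27, Slc22a28 and Slc22a29). At 3 counts in a library this allows a level of up to 0.0282 to 0.0432 CPM before TMM scaling, for counting error only. That limit is higher if a fragment stands for several counts. Slc22a2, Slc22a6, Slc22a7, Slc22a8, Slc22a12, Slc22a14, Slc22a20 and Slc22a30 had counts but fell under the filter, with no library above 0.244 CPM. The 4 tested had a median log2 fold change of -2.28, against 0.026 over all genes tested. By edgeR 0 of the 4 were called, with 2 at an unadjusted p below 0.05 and 2 called by DESeq2, against 0.704%, 15.6% and 7.59% of all genes tested. The pseudogene Slc22a13b-ps had a log2 fold change of -2.23 (SE 0.75, edgeR adjusted p = 0.222). Slc22a3, the carrier OCT3, which overlaps the opposite-strand gene Plg, was at or below 0.808 CPM in every library (edgeR adjusted p = 0.438). Slc22a17, a receptor for lipocalin-2, had 4.31, 5.60 and 4.24 CPM in NEC, against 5.16, 3.05 and 5.08 CPM in control (edgeR adjusted p = 0.941). Its mean per kilobase of exon was 1.04 in NEC and 0.98 in control, above that of the member Slc22a15 (0.545 and 0.485).

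Of the carnitine shuttle, synthesis and other carnitine carrier genes, 11 were tested and 0 were called by edgeR, with 2 at an unadjusted p below 0.05 and 0 called by DESeq2. The shares over all genes tested were 0.704%, 15.6% and 7.59%. The median log2 fold change of the 11 was -0.006. Among the 7 genes listed here for the shuttle, 4 had every NEC library below every control library, against 11.6% of all genes tested. The list was drawn up with earlier results of these data known, so nothing is read from that share. Crot, the peroxisomal carnitine octanoyltransferase, had 175, 197 and 174 CPM in NEC, against 278, 391 and 242 CPM in control (log2 fold change -0.74, SE 0.25, edgeR adjusted p = 0.227). Cpt2, the inner membrane carnitine palmitoyltransferase, had 53.3, 83.4 and 93.3 CPM in NEC, against 113, 114 and 109 CPM in control (-0.55, SE 0.26, edgeR adjusted p = 0.361). The carnitine-acylcarnitine exchanger gene Slc25a20 had 129.7, 152 and 161 CPM in NEC, against 208, 178 and 187 CPM in control (-0.37, SE 0.21, edgeR adjusted p = 0.455). Cpt1c stood at 1.32 to 1.76 CPM in NEC and at 2.30 to 3.42 CPM in control (-0.86, SE 0.37, edgeR adjusted p = 0.319). Cpt1a, the gate of mitochondrial entry, was not among these 4, at 514, 274 and 357 CPM in NEC and 301, 312 and 359 CPM in control (0.24, edgeR adjusted p = 0.754). The other 2 genes of this list also had positive values with overlapping groups, so 3 values were positive and 4 negative. They were Cpt1b (0.96, SE 1.51, edgeR adjusted p = 0.823) and Slc25a29 (2.20, SE 1.38, edgeR adjusted p = 0.501). Both were scarce and varied widely. Cpt1b ran from 0.0677 to 4.47 CPM in NEC and from 0.123 to 3.47 CPM in control. Slc25a29 ran from 0.361 to 2.51 CPM in NEC and from 0 to 0.789 CPM in control.

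In carnitine synthesis, Aldh9a1 had 370.2, 218 and 253 CPM in NEC, against 183, 167 and 215 CPM in control, with NEC above control in every library (log2 fold change 0.57, SE 0.27, edgeR adjusted p = 0.364). Bbox1, which makes carnitine in the last step, had 2.84, 4.48 and 8.59 CPM in NEC, against 11.7, 5.14 and 26.7 CPM in control (-1.45, SE 0.65, edgeR adjusted p = 0.335), and these groups overlapped. The other named enzyme of this route, Tmlhe, was not analysed here. The amino acid and carnitine carrier gene Slc6a14 varied from 0.603 to 5.22 CPM in NEC and from 0 to 1.02 CPM in control, and Slc16a9 stayed at or below 1.08 CPM. Exons of Crot and Cpt1c overlap an opposite-strand gene, so part of their counts cannot be told apart from it.

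**Figure D5:**
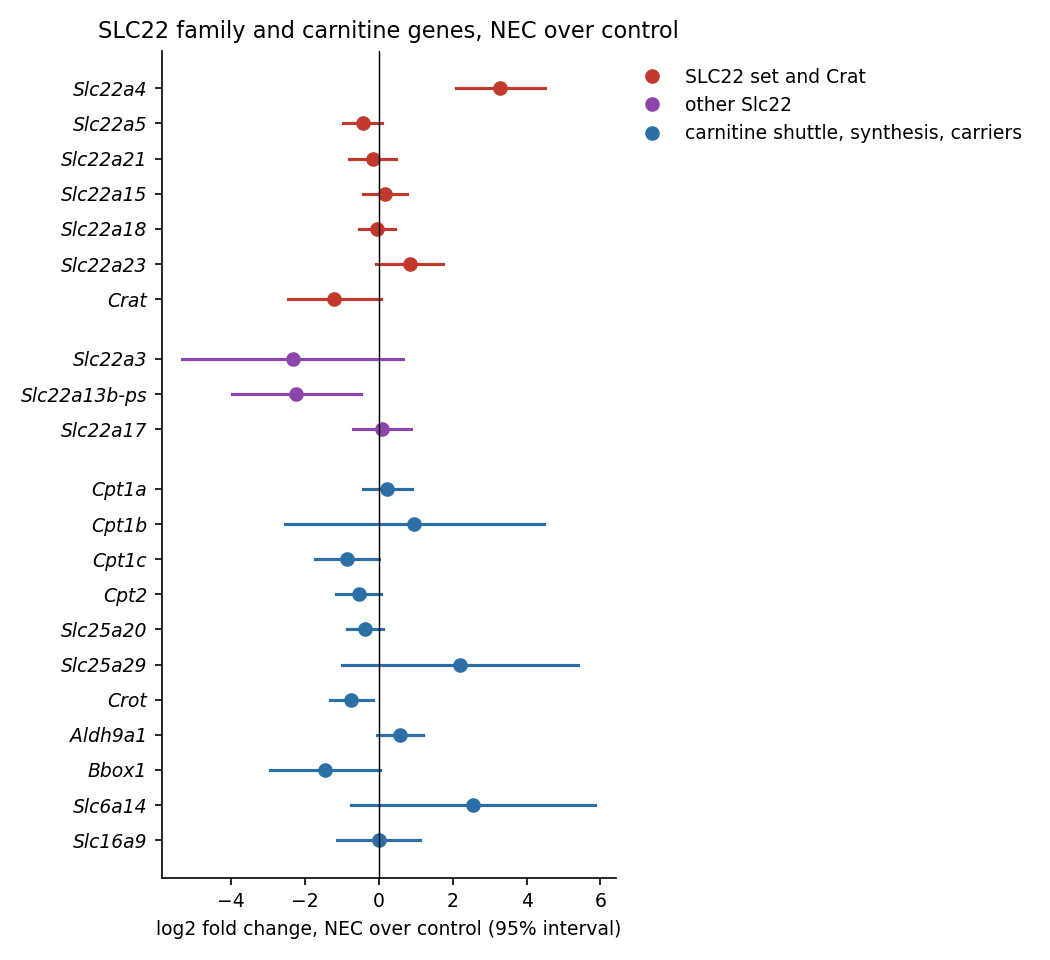
Log2 fold change of NEC over control (points) with 95% intervals (lines) for the 7 genes, 3 other SLC22 genes and 11 carnitine genes. Slc22a4 at 3.29 lies far from the other 6, and Crat at -1.20 is the lowest of the 7.

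Partner genes were taken as other organic cation and choline carriers, PDZ scaffolds, pyruvate dehydrogenase with its kinases and phosphatases, peroxisomal fatty acid oxidation and regulators. Of these 41 genes, 40 were tested and 0 were called by edgeR, with 7 at an unadjusted p below 0.05 and 3 called by DESeq2. Over all genes tested these shares were 0.704%, 15.6% and 7.59%. The median log2 fold change of the 40 partner genes was 0.047. Slc47a1, the MATE1 exporter that takes organic cations out of cells, had 14.3, 10.1 and 20.4 CPM in NEC, against 3.88, 4.24 and 5.58 CPM in control. Every NEC library was above every control library (log2 fold change 1.71, SE 0.35, edgeR adjusted p = 0.0797). The PDZ scaffold gene Pdzk1, whose protein binds OCTN carriers at the brush border, had 202, 255 and 165 CPM in NEC, against 307, 440.0 and 252 CPM in control (-0.68, SE 0.29, edgeR adjusted p = 0.322), and the related Pdzd3 had a log2 fold change of -0.52 (edgeR adjusted p = 0.325). Slc9a3r1 (0.36), Slc9a3r2 (0.47), the choline carrier genes Slc44a4 (-0.61) and Slc44a2 (-0.60) and the monoamine carrier gene Slc29a4 (1.26) did not pass.

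On the acetyl-CoA side of Crat, Pdp2, a phosphatase that activates pyruvate dehydrogenase, had 26.5, 18.8 and 25.6 CPM in NEC, against 89.0, 87.0 and 51.7 CPM in control (log2 fold change -1.68, SE 0.29, edgeR adjusted p = 0.0534). It passed under DESeq2, without a low-count filter, with the stricter filter and with the sample code as a term. The inhibitory kinase gene Pdk3 had a log2 fold change of -0.72 (SE 0.25, edgeR adjusted p = 0.235), while Pdk4 varied from 8.02 to 131 CPM in NEC alone. Pdp1 (1.01, edgeR adjusted p = 0.388) and Pdhb (0.33, edgeR adjusted p = 0.466) had positive values. In peroxisomal oxidation, 9 of 12 genes had negative values, against 9222 of all 19176 genes tested, including Acox3 (-0.91, SE 0.23, edgeR adjusted p = 0.117), Acaa1a (-0.68, edgeR adjusted p = 0.284) and Acaa1b (-1.45, edgeR adjusted p = 0.293), and the 3 positive ones were Acox2 (0.93, edgeR adjusted p = 0.241), Abcd2 (1.35, edgeR adjusted p = 0.338) and Abcd3 (0.21, edgeR adjusted p = 0.678). Ppara, a regulator of fatty acid oxidation genes that induces Slc22a5 in mouse liver, had 38.8, 3.97 and 16.7 CPM in NEC, against 3.42, 2.47 and 13.1 CPM in control, and did not pass (edgeR adjusted p = 0.426), nor did Pparg (0.83), Rela (0.30) or Ppargc1a (0.36). Runx1, linked to SLC22A4 in human cells, had a log2 fold change of -0.099 (SE 0.33, edgeR adjusted p = 0.932). Exons of Pdzk1, Acox3, Acaa1a, Acaa1b and Runx1 overlap opposite-strand genes, so counts in the shared bases cannot be told apart.

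Slc22a18 sits in an imprinted region of chromosome 7, and none of its neighbours tested within 150 kb was called at the settings used throughout. Kcnq1, a potassium channel gene at 46.7 kb, had 40.7, 22.8 and 44.9 CPM in NEC, against 9.65, 12.4 and 11.4 CPM in control (log2 fold change 1.70, SE 0.31, edgeR adjusted p = 0.0634). Kcnq1 passed without a low-count filter (edgeR adjusted p = 0.0446), without NEC replicate 2 (edgeR adjusted p = 0.0432) and under DESeq2 (adjusted p = 0.0001). Phlda2, at 2.2 kb, had 0.765, 0.350 and 1.68 CPM in NEC, against 0.0545, 0.158 and 0.076 CPM in control (3.27, SE 0.81, edgeR adjusted p = 0.115), and passed under DESeq2 (adjusted p = 0.00287). The cell cycle inhibitor gene Cdkn1c, at 12.7 kb, had 229, 252 and 193 CPM in NEC, against 402, 297 and 391 CPM in control (-0.69, SE 0.24, edgeR adjusted p = 0.230). Nap1l4 (0.33, edgeR adjusted p = 0.462) and Cars (-0.50, edgeR adjusted p = 0.394) did not pass either, nor did Tnfrsf22 (-0.036), Tnfrsf26 (-1.17) or Gm44732 (-1.69). Kcnq1 shares exonic bases with the opposite-strand RNA Kcnq1ot1, and Cdkn1c with Gm44732, so counts in the shared bases cannot be told apart.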

How the data were processed

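Per the labels' protocols, TRIzol RNA was read in pairs of 150 bp (Illumina NovaSeq). The authors deposited 1 table of whole-number counts per gene, not normalized, with 1 column per sample, and the submitters' processing notes name the build mm10. Aligner, counter, annotation and strand setting: not given in the sources used here. Of 54446 identifiers, 54409 matched a symbol in GENCODE release M21. Low counts at multiples of 4 were 1.95 times as frequent as their neighbours, so 1 fragment may stand for several counts and totals may overstate depth.

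Genes kept by filterByExpr (minimum count 10) entered edgeR 4.0.16 (R 4.3.3) with TMM scaling, the quasi-likelihood F test with robust=TRUE, and Benjamini-Hochberg adjustment over all 19176 genes, with calls at an adjusted p below 0.05. Positive log2 fold changes mean higher in NEC. Alternatives were other scalings and filters, DESeq2 1.42.0, limma-voom (limma 3.58.1), robust=FALSE, a block for the replicate number, the sample code prefix as a term or its AG181017 libraries alone, and libraries left out. The procedure was tested on simulated counts, and every pair of libraries differed by more than sampling noise.

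The 7 genes, the gene lists, the motifs and the rule for named genes were chosen with earlier results of these data known. Named were all members, every other Slc22 gene, up to 4 genes per list with the smallest raw p, tested genes within 150 kb of Slc22a4, Slc22a5, Slc22a21 or Slc22a18, and the genes nearest in pattern; a few others were named after their values were seen. Single values of some genes that the rule names are not reported here.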

Additional observations from a re-analysis of the deposited data

How the results depend on the processing

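The 135 calls over all genes depended on the settings. They numbered 247 without a low-count filter, 1452 with DESeq2, 243 with the sample code as a term, 54 with the replicate number as a block, 25 in the AG181017 libraries alone, 1 without control replicates 1 and 2, and 0 to 106 with 1 library left out. Slc22a4 was called under every scaling, every filter, DESeq2, limma-voom, robust=FALSE and the sample code term, but not under the replicate block, in the AG181017 libraries alone (log2 fold change 2.73) or without control replicates 1 and 2 (3.63). Libraries of the same replicate number had correlations of deviations of -0.141, 0.269 and -0.00704 for numbers 1 to 3. NEC replicate 1 correlated best with control replicate 3 (0.358) and NEC replicate 2 with control replicate 2. Deviations were taken from the mean of 3 libraries in each group, so these values cannot settle whether the libraries were paired. Called partner genes numbered 1 without a filter, 1 with at least 50 counts in at least 3 libraries, 1 with the sample code term and 3 with DESeq2. Called neighbours numbered 2 without a filter, 5 with DESeq2, 0 under the replicate block, in the AG181017 libraries alone and without control replicates 1 and 2, and 0 to 1 with 1 library left out. Other Slc22 calls numbered 2 with DESeq2. With 1 library left out Crat ran from -2.07 to -0.84. Among the named genes followed through these settings, signs turned for 10 that were not called: Slc22a18 (0.019 with library-size scaling, -0.15 to 0.049 with 1 library left out), Slc22a21 (-0.42 to 0.001 with 1 library left out), Slc16a9 (0.006 with upper quartile and 0.049 with library-size scaling, 0.300 in AG181017 alone, -0.32 to 0.21 with 1 library left out), Tnfrsf22 (0.076, 0.260, -0.54 to 0.20), Slc44a2 (0.159 in AG181017 alone, -1.03 to 0.064), Slc22a17 (-0.12 to 0.21, and -0.106 without control replicates 1 and 2), Slc9a3r2 (-0.010 to 0.89, and -0.120), Slc44a4 (0.072 without control replicates 1 and 2), Ppargc1a (-0.17 to 0.71) and P4ha2 (-0.19 to 0.63). Other genes with printed values, among them Cpt1a, Cpt1b, Slc25a29, Abcd2, Abcd3 and Runx1, were not followed, so their signs may turn as well. The causes were not tested. With 3 libraries a group, a missed call does not show equal levels.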
